A study of Mus musculus with 6 samples.

Results

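The cells compared were 50 of the 84 single cells of the HSC1 library, itself 1 of 6 libraries that hold 497 cells in all. In each HSC1 cell the deposited score of Cd48 was subtracted from that of Procr, the gene of the surface protein CD201, and the 25 cells with the highest difference (Procr-leaning) were set against the 25 with the lowest (Cd48-leaning). The other 34 cells formed a middle group. The differences ran from 4.41 to 1.42 SD units in the Procr-leaning cells and from -0.63 to -3.84 in the Cd48-leaning cells, and the nearest cells left outside had 1.40 and -0.55. Because Procr and Cd48 chose the cells, neither gene is used as a result.

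Blood-forming cells of C57BL/6 mice were sorted and sequenced one by one, 1 library per set of gates, and the HSC1 library mixed 2 gates, CD201+CD48-HSC1 and CD48+HSC1. Column names do not give a cell's gate, so the ranking by RNA stands in for the sort and cannot be checked against it. The HSC1 mice were 8 to 10 weeks old; the labels give no number of mice. The tissue label of this library is spleen, whereas the series title speaks of bone marrow; the HPC1 library, used below for a second split, carries the same age and tissue labels and mixes the gates CD201+CD48-HPC1 and CD48+HPC1.

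Haematopoietic stem cells (HSCs) are rare cells that renew themselves and feed every blood lineage, and most of them in an adult mouse rest outside the cell cycle. CD201, the endothelial protein C receptor, is a surface marker of the most potent mouse stem cells, whereas CD48, a protein of the SLAM family, appears on progenitors that have begun to divide and to commit. Sorting for CD201 and against CD48 is therefore used to enrich for stem cells with long-term function.

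All 25 Procr-leaning cells had a Procr count and 5 of them also had a Cd48 count. All 25 Cd48-leaning cells had a Cd48 count and 15 of them also had a Procr count. Total counts per cell had a median of 61915 (lowest 1342, highest 166724) in the Procr-leaning group and 64066 (13196 to 213896) in the Cd48-leaning group, and the median number of genes counted was 3799 and 4606. The 3 deepest cells held 25.6% and 27.1% of their group's counts. The column names carry a cell number: 23 of the 25 Procr-leaning cells were numbered 48 or lower, and all 25 Cd48-leaning cells were numbered over 48. The labels do not say what the number stands for, so the number (which may be a position) and the group cannot be told apart. No 2 cells had identical columns, and the HSC1 library shared from 68 to 81 cell numbers with each other library. Both groups lie in 1 library and cells are not replicates, so no p-value is given. Levels are counts per 1000000 of a cell's total (CPM), pooled over the cells of a group, with 95% Poisson intervals that cover counting error only.

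**Figure D1:**
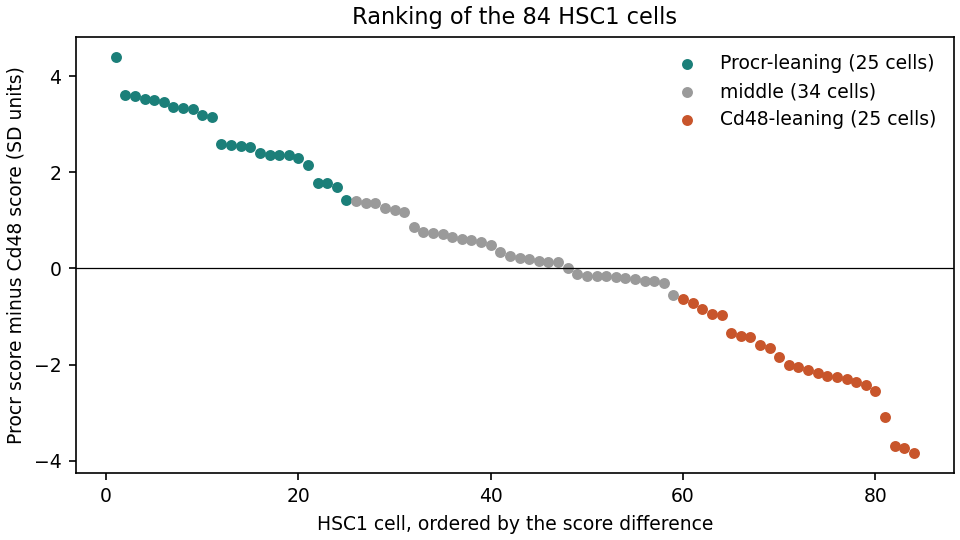
The 84 HSC1 cells in order of Procr score minus Cd48 score (vertical axis, SD units). The 25 Procr-leaning cells lie at 1.42 or above, the 25 Cd48-leaning cells at -0.63 or below, and the 34 middle cells between them.

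Procr-leaning cells carried more RNA of stem-cell genes, and Cd48-leaning cells more RNA of DNA replication and mitosis genes. Of 28 measured HSC genes, 16 were at least 2-fold higher in the Procr-leaning cells and 0 in the Cd48-leaning cells. Of 24 S phase genes, which copy DNA, 22 were at least 2-fold higher in the Cd48-leaning cells, as were 20 of 23 G2/M genes, which run mitosis. Over all 11987 genes measured, 11.8% were at least 2-fold higher in the Procr-leaning cells and 11.5% in the Cd48-leaning cells. Ratios throughout are log2 ratios of pooled CPM with 10 CPM added to each side, Procr-leaning over Cd48-leaning, a scale that understates differences of low genes. The median ratio was 1.29 for the HSC genes, -2.19 for the S phase genes and -2.20 for the G2/M genes, against 0.00 for all genes measured.

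The G2/M difference rested on where the groups were drawn. With 35 cells on each side the G2/M median was -0.28, and with cells grouped by detection (35 cells with a Procr and no Cd48 count against 13 with a Cd48 and no Procr count) it turned to 0.85. The HSC medians under the same settings were 1.07 and 1.09, and the S phase medians were -1.66 and -0.87. Grouping by detection left out the 15 Cd48-leaning cells with a Procr count, among them the deepest, of 213896 counts. Its Procr side took in a middle cell of 252315 counts with 14973 CPM of S and G2/M genes. That cell, at rank 27, was also on the Procr side of the setting with 35 cells, so the 2 settings are not independent. The part of such deep cells in the values of either setting was not tested. Pooled over its cells, the middle group had 2201 CPM of summed G2/M genes. The Cd48-leaning cells had 2459 CPM and the Procr-leaning cells 457 CPM. Per cell, however, the middle group lay nearer the Procr-leaning cells. Its median sum over the 47 S and G2/M genes was 1624 CPM, against 1260 CPM in the Procr-leaning and 5167 CPM in the Cd48-leaning cells. Only 4 of the 34 middle cells were over 4000 CPM.

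Among the 7049 genes counted in at least 25% of the cells of 1 group, 847 (12%) were at least 2-fold higher in the Procr-leaning cells and 1123 (15.9%) in the Cd48-leaning cells. A naming rule on size, on the share of cells with a count and on the deposited score was met by 1892 of them, 691 and 1201 in the 2 directions, and the 12 with the largest ratio on each side are described first.

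Sult1a1, a sulfotransferase that conjugates phenolic compounds, had the largest ratio toward the Procr-leaning cells. Its pooled level was 452 CPM (interval 420.3 to 487) in them, 59.6 CPM in the middle cells and 14.3 CPM (9.68 to 20.2) in the Cd48-leaning cells, a log2 ratio of 4.25. Per cell it ran from 0 to 1688 CPM with a median of 216 in the Procr-leaning cells and from 0 to 104 with a median of 11.2 in the Cd48-leaning cells. The ranges overlap at the low end, but no Cd48-leaning cell reached the Procr-leaning median.

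Mllt3, which encodes AF9, a chromatin reader of the super elongation complex that supports stem-cell maintenance, lies at chr4:87769925-88033364 (GRCm38) on the minus strand. It had 595 CPM (558 to 634) in the Procr-leaning cells, 293 CPM in the middle cells and 33.1 CPM (25.9 to 41.7) in the Cd48-leaning cells, a log2 ratio of 3.81. The per-cell median was 458 CPM (0 to 1417) against 15.6 CPM (0 to 547). To compare cells at equal depth, each was thinned to 10000 counts (2 shallower Procr-leaning cells dropped out). Mllt3 was then counted in 82.6% of 23 cells (Clopper-Pearson 95% interval 61.2 to 95%) and in 20% of 25 cells (6.83 to 40.7%), and without thinning in 23 and 17 of 25.

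Hacd4, a dehydratase of very long chain fatty acid synthesis, lies on the same chromosome and strand at chr4:88396144-88438928. Its level was 642 CPM (604 to 683) in the Procr-leaning cells and 53.3 CPM (44.1 to 64.0) in the Cd48-leaning cells, with 230 CPM in the middle group and a log2 ratio of 3.36. Without thinning, 24 Procr-leaning and 20 Cd48-leaning cells had a count. By the naming rule, the share of cells with a count after thinning was higher in the Procr-leaning group. With cells grouped by detection, the ratios of Sult1a1, Mllt3 and Hacd4 were 3.26, 2.94 and 3.23.

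The other 9 named genes on this side had log2 ratios from 3.07 to 3.69. They include Socs2, a feedback inhibitor of cytokine signalling through STAT5 (108 against 2.76 CPM), Tinagl1, a secreted matrix protein (124 against 5.52 CPM), and Susd3, a sushi-domain membrane protein (176 against 7.36 CPM). Cpne8, a calcium-dependent lipid-binding protein, had 80.5 CPM in the Procr-leaning cells and 0 counts in the Cd48-leaning cells, which makes it at least 58.3-fold higher against a floor of 3 counts over the group. Xdh, the xanthine dehydrogenase of purine breakdown, owed much of its ratio of 3.69 to 1 cell, since the ratio was 2.59 without the highest cell of each group. Tmem161b, Wfdc2 and Morn2 were counted in 8, 8 and 13 Procr-leaning cells, so each pooled level came from at most 13 of the 25 cells.

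**Figure D2:**
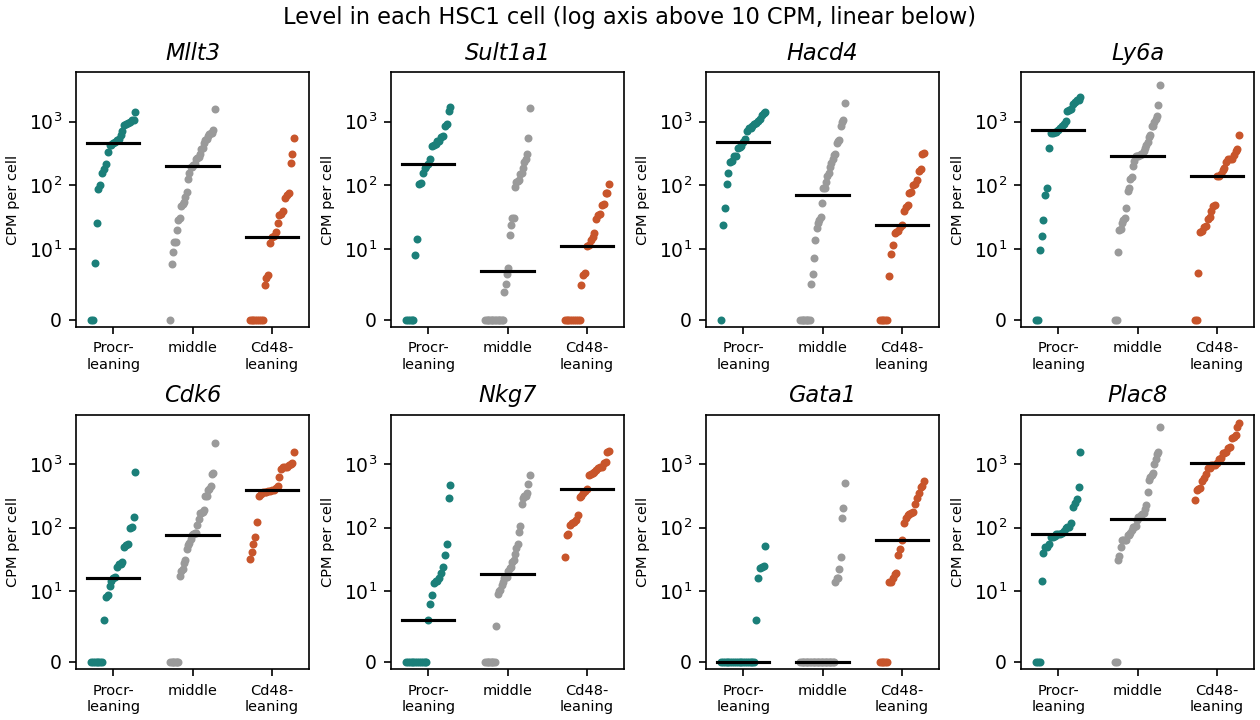
Level of 8 genes in each HSC1 cell (CPM, log axis above 10, linear below), with a bar at each group's median over cells. Mllt3 medians are 458 CPM in Procr-leaning and 15.6 CPM in Cd48-leaning cells, and Cdk6 medians are 16.2 and 389 CPM.

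On the Cd48-leaning side, most of the 12 named genes act in copying DNA, packing it or sharing out chromosomes. Pclaf, a small protein that binds the replication clamp PCNA, had 413 CPM (386 to 441) in the Cd48-leaning cells and 8.05 CPM (4.28 to 13.8) in the Procr-leaning cells, a log2 ratio of -4.55. Hells, a chromatin remodeller needed for DNA methylation, had 239 CPM (218 to 260.1) and 3.09 CPM (1.0 to 7.22), a log2 ratio of -4.25. Its per-cell median was 224 CPM (0 to 887) in the Cd48-leaning cells, while only 4 Procr-leaning cells had a count and none exceeded 26.9 CPM. After thinning, Hells was counted in 68% of the Cd48-leaning cells (46.5 to 85.1%) and in 0 of 23 Procr-leaning cells (0 to 14.8%), against 20 and 4 of 25 before thinning. With cells grouped by detection the ratios were much smaller, -0.85 for Pclaf and -1.02 for Hells.

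Tyms, which makes thymidine nucleotides, had 271 against 12.4 CPM, and the kinetochore genes Cenph and Spc24 had 145 against 3.09 CPM and 187 against 6.81 CPM. By detection the ratios of Tyms, Cenph and Spc24 were -1.31, -0.43 and -0.10, and with 35 cells a side they were -1.95, -1.13 and -1.04. Top2a, the topoisomerase that untangles replicated chromosomes, had 360 against 27.2 CPM, and its ratio of -3.31 turned to 0.25 when cells were grouped by detection. Ung, which removes uracil from DNA, had 100.2 against 1.24 CPM. Hist1h2ak, a histone H2A gene, had 89.7 CPM and 0 counts in the Procr-leaning cells, at least 48.3-fold lower there. Its ratio was 1.34 by detection, and as 1 of many near-identical histone genes its counts are uncertain.

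Cdk6, the kinase that drives stem cells from rest into G1, was counted in all 25 Cd48-leaning cells. Its per-cell level there ran from 31.9 to 1531 CPM with a median of 389, against 0 to 745 with a median of 16.2 in the Procr-leaning cells. The 745 CPM came from the shallowest cell, with 1342 counts in all, and the next highest Procr-leaning cell had 147 CPM. The pooled levels were 502 CPM (473 to 533) and 26.6 CPM (19.3 to 35.9), a log2 ratio of -3.81. The middle cells pooled to 381 CPM with a per-cell median of 77.3, and the ratio was -0.37 when cells were grouped by detection. The Procr side of that grouping took in a middle cell of 254246 counts with 2175 CPM of Cdk6.

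Nkg7, a membrane protein of cytotoxic granules, was likewise counted in all 25 Cd48-leaning cells. Its per-cell level ran from 34.1 to 1591 CPM with a median of 397, against 0 to 471 with a median of 6.00 in the Procr-leaning cells, where 13 cells had a count. The pooled levels were 588 CPM (556 to 621) and 35.9 CPM (27.3 to 46.4), a log2 ratio of -3.70, and by detection it was -2.33.

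Klf1, the transcription factor of red-cell genes, had 126 CPM (111 to 141) in the Cd48-leaning cells and 1.86 CPM in the Procr-leaning cells, from 11 and 3 cells. Mfsd2b, an exporter of sphingosine-1-phosphate in red cells and platelets, had 113 against 2.48 CPM, from 13 and 4 cells. For both genes the Cd48-leaning median over cells was low (0 and 4.68 CPM), so the pooled level came from a subset of the cells.

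The HPC1 library, which mixes the CD201+CD48- and CD48+ gates of HPC1 cells, shares no cell with the HSC1 library. Its counts did not enter the ratios that ranked these genes. The scores behind the split and the naming rule were, however, scaled over all 497 cells, HPC1 cells included. In HPC1 the lower group was less well marked: 17 of its 25 cells had a Cd48 count, 6 had a Procr count and 8 had neither, and it began at a score difference of -0.16. Total counts per cell had a median of 67327 in the lower, 131468 in the middle and 111207 in the upper HPC1 group. Middle cells numbered 77 and 89 had 26 and 36 Cd48 counts among totals of 397229 and 461611. The part of depth in the HPC1 grouping was not tested. All 25 cells of the upper group had a Procr count and 9 had a Cd48 count. Ranked the same way, its 25 highest against its 25 lowest cells gave the same direction for 11 of the 12 genes named on the Procr side, all 11 at least 2-fold, and for 11 of the 12 on the Cd48 side, 9 of them at least 2-fold. Over the 7049 genes counted in 25% of HSC1 cells of a group, 46.9% had a ratio above 0 in HPC1 and 53.1% below it, and 10.1% and 8.1% of all measured genes were at least 2-fold higher on the Procr and Cd48 side. Sult1a1 had 445 against 65.7 CPM there, Mllt3 339 against 74.5 CPM, Cdk6 56.2 against 383 CPM and Nkg7 36.5 against 644 CPM. The exceptions were Morn2 (-0.61) and Klf1 (0.65). The cell numbers were split in HPC1 as well, with 24 of the 25 Procr-leaning cells at 48 or lower and 20 of the 25 Cd48-leaning cells over 48.

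A further comparison was between whole libraries sorted on surface protein, the CD48-negative HSC2 library over the library of CD48+HSC2 and MPP4 cells. The CD48-negative HSC2 library mixes the gates CD48-CD201+HSC2 and CD48-CD201-HSC2. The comparison is therefore not one of CD201+ against CD201- cells. The 12 Procr-side genes had the same direction in 11 cases (5 at least 2-fold, with Cpne8 at -0.14), and the 12 Cd48-side genes in all 12 (7 at least 2-fold). Of the 7049 genes, 54% had a ratio above 0 in this comparison and 45.9% below it. Of all genes measured, 3.3% and 1.86% were at least 2-fold higher in those 2 libraries. These libraries also differ in cell type, and are labelled total RNA and mice aged 8 weeks.

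**Figure D3:**
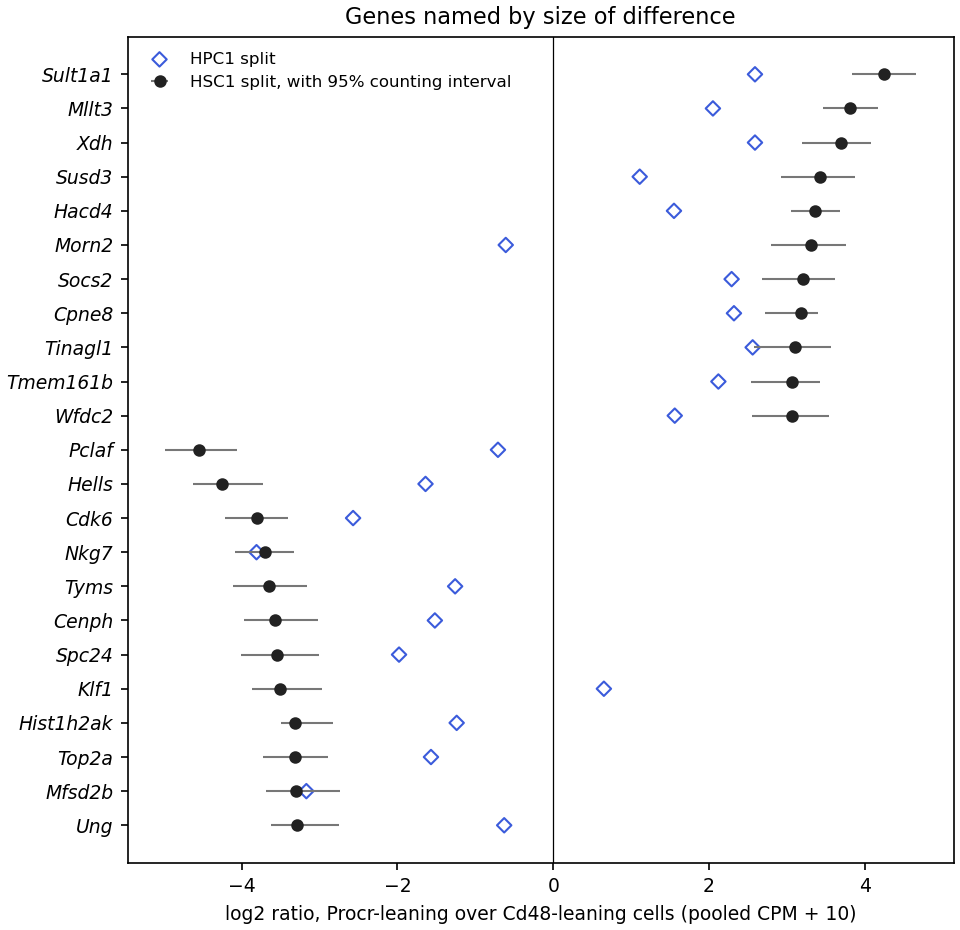
Log2 ratio of pooled CPM (10 CPM added), Procr-leaning over Cd48-leaning cells, for the named genes described here in HSC1 (filled circles with bars) and in HPC1 (open diamonds). Each bar sets opposite ends of the 2 groups' 95% counting intervals against each other, so it is wider than a 95% interval of the ratio. Morn2 and Klf1 lie on opposite sides of 0 in the 2 libraries, and the other genes drawn lie on the same side.

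The stem-cell genes beyond Sult1a1 and Mllt3 were led by Ly6a, which encodes Sca-1, a surface protein used to sort stem cells. It had 1104 CPM (1054 to 1157) in the Procr-leaning cells, 302 CPM in the middle cells and 148 CPM (132 to 165) in the Cd48-leaning cells, a log2 ratio of 2.82. Mecom, the transcription factor EVI1 that keeps stem cells from differentiating, had 235 CPM (212 to 259) against 38.2 CPM (30.4 to 47.3), a ratio of 2.34. Its per-cell median was 207 CPM (0 to 715) against 51.7 CPM (0 to 152), with the middle cells at 142 CPM. Hlf, another stem-cell transcription factor, had 375 against 114 CPM (1.63), and Pdzk1ip1, a marker of dormant stem cells, had 865 against 164 CPM (2.33). Txnip, a brake on glucose uptake, had 711 against 194 CPM (1.82).

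Of the 28 HSC genes, 24 had ratios above 0 and 4 below it. Those below were Tal1 (-0.98), Prdm16 (-0.76), Tek (-0.54) and Gata2 (-0.34). Meis1 and Hoxa9, which progenitors also express, had ratios of 0.69 and 0.54. In the HPC1 split the HSC median was 1.37, with 17 of the 28 at least 2-fold higher on the Procr side and 2 on the Cd48 side, and it was 1.04 in the comparison of the 2 HSC2 libraries. Summed per cell in HPC1, the HSC genes had a median of 5116 CPM in the Procr-leaning, 2401 CPM in the middle and 2519 CPM in the Cd48-leaning cells. Hoxb5 was counted in 5 Procr-leaning and 7 Cd48-leaning cells and Ctnnal1 in 8 and 2, so their ratios of 1.30 and 2.22 come from few cells.

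Among the genes of other sorting markers, Cd34, which marks stem cells that have left the most dormant state, was lower in the Procr-leaning cells. Its per-cell median was 25.2 CPM (0 to 469) against 280 CPM (5.84 to 1031), the pooled levels were 110.2 and 321 CPM, and the ratio was -1.46, or -0.43 by detection. Itga2b, the CD41 gene of the megakaryocyte line, had a median of 0 CPM (0 to 108) against 88.8 CPM (0 to 307), a ratio of -2.23 that was -0.38 by detection. Kit, Slamf1 (the CD150 gene) and Flt3 had ratios of 0.25, 0.64 and -0.13, within 2-fold either way.

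**Figure D4:**
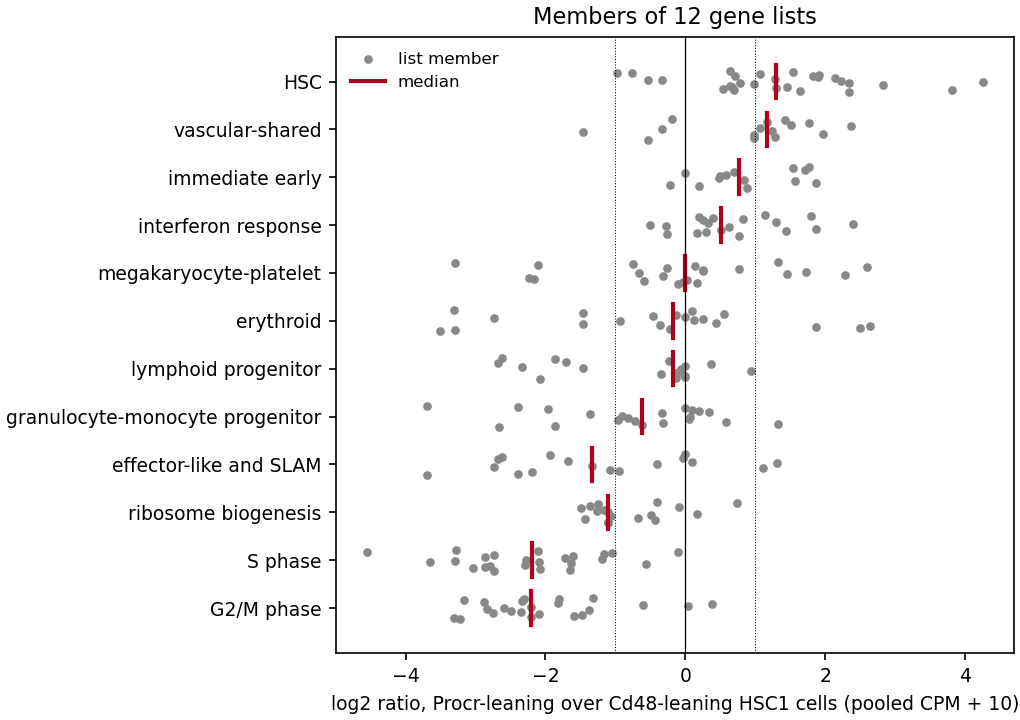
Log2 ratio (pooled CPM with 10 CPM added, Procr-leaning over Cd48-leaning HSC1 cells) of each measured member of 12 gene lists, with list medians as bars and dotted lines at 2-fold. HSC members centre on 1.29, S phase on -2.19 and G2/M on -2.20.

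Lineage genes were found on both sides of the split. Of 22 megakaryocyte and platelet genes, 5 were at least 2-fold higher in the Procr-leaning cells and 4 in the Cd48-leaning cells, with a median of -0.01. The Procr side included Mmrn1, a platelet granule protein (128 against 12.9 CPM), Vwf, von Willebrand factor (58.8 against 4.14 CPM), Fli1 and Clec1b. The Vwf ratio of 2.28 was 1.29 without the highest cell of each group, and that of Clec1b was 0.18 in place of 1.72. On the Cd48 side were Gata1, the factor of red-cell and megakaryocyte genes, Itga2b, Gp5 and F2rl2. Gata1 was counted in 6 Procr-leaning and 20 Cd48-leaning cells, with pooled levels of 4.33 CPM (1.74 to 8.93) and 130.1 CPM (115 to 146) and a log2 ratio of -3.29. In the HPC1 split Gata1 was at -2.94 and the list median at -1.11, with 12 of the 22 genes at least 2-fold higher on the Cd48 side.

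Of 20 erythroid genes, 6 were at least 2-fold higher in the Cd48-leaning cells, among them Klf1, Gata1, Mfsd2b and Hemgn (8.05 against 110 CPM), and 3 in the Procr-leaning cells. Those 3 were the globins Hbb-bs, Hba-a1 and Hba-a2 (2.64, 2.50 and 1.87). A single cell held 37.8% of the globin counts of the Procr-leaning group, and globin copies are near-identical, so their split between genes is uncertain. Car2, a carbonic anhydrase, had 1742 against 1286 CPM (0.44).

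Granulocyte and monocyte genes had a median of -0.62, with 6 of 21 at least 2-fold higher in the Cd48-leaning cells. The median was -0.17 without the highest cell of each group for each gene and 0.00 by detection. It was 0.08 in the HPC1 split, with 9 of the 21 at least 2-fold higher on the Procr side and 3 on the Cd48 side. Mpo, the myeloperoxidase of neutrophil granules, had 9.90 CPM (5.66 to 16.1) against 117 CPM (103 to 132), from 11 and 16 cells, a ratio of -2.67. Elane, neutrophil elastase, had a ratio of -1.86 that was -0.11 without the highest cell of each group. Prtn3, proteinase 3, went the other way with 862 against 340.2 CPM (1.32) and was counted in 25 and 23 cells, but its ratio was 0.09 by detection.

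Of 18 lymphoid progenitor genes, 7 were at least 2-fold higher in the Cd48-leaning cells and 0 in the Procr-leaning cells, with a median of -0.19. The HPC1 split had a lymphoid median of 0.02, with 2 of the 18 at least 2-fold higher on the Procr side and 0 on the Cd48 side. Cd52, a small surface glycoprotein of leukocytes, had 24.8 against 212 CPM from 7 and 18 cells (-2.68). Dntt, the enzyme that adds bases at antigen receptor joints, and Ighm were at -2.08 and -2.34, but at -0.14 and -0.54 without the highest cell of each group.

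Genes of effector lymphocytes and the SLAM family had a median of -1.33, with 10 of 17 at least 2-fold higher in the Cd48-leaning cells and 2 in the Procr-leaning cells. That median was -0.83 without the highest cell of each group for each gene, 0.20 when cells were grouped by detection and 0.05 in the HPC1 split. Plac8, a cysteine-rich protein of progenitors and myeloid cells, ran from 268 to 4360 CPM with a median of 1028 in the 25 Cd48-leaning cells, all of which had counts, and from 0 to 1552 with a median of 79 in the Procr-leaning cells. Its ratio was -2.74, from 225 CPM (203 to 249.7) against 1559 CPM (1507 to 1613). Lgals1, galectin-1, had 109 against 442 CPM (-1.93), and Cd37, a tetraspanin, had 33.4 against 129 CPM (-1.68). By detection Plac8, Lgals1 and Cd37 were at -1.16, -1.31 and -0.68. The 2 on the Procr side were Cd84 (1.31), a SLAM receptor, and Ccl4 (1.11), a chemokine.

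Genes that stem cells share with blood vessel lining cells had a median of 1.16, with 9 of 15 at least 2-fold higher in the Procr-leaning cells and 1, Cd34, in the Cd48-leaning cells. Without the highest cell of each group for each gene the median was 0.69 with 5 of 15 at least 2-fold higher, and it was 0.57 by detection and 0.18 as a mean of log2(CPM + 10) over cells. In the HPC1 split the median was 1.71, with 9 and 0. Emcn, endomucin, had 163 CPM (144 to 184) against 34.5 CPM (27.1 to 43.2), from 13 and 6 cells. Eng, the endoglin co-receptor of TGF-beta, was counted in 23 and 21 cells, with 257 against 104 CPM (1.23). The junction genes Jam2 and Jam3 had ratios of 2.37 and 1.51, each from 6 Procr-leaning cells. By detection Emcn, Eng, Jam2 and Jam3 were at 2.43, 0.25, 1.15 and 0.15. Sox18, at 1.42, was counted in 1 Procr-leaning cell only.

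Interferon response genes had a median of 0.51, with 6 of 19 at least 2-fold higher in the Procr-leaning cells and 0 in the Cd48-leaning cells. Oasl2, an antiviral protein, had 264 against 42.3 CPM (2.39), and Irf7, the master regulator of type I interferon genes, had 207 against 49.2 CPM (1.87). Without the highest cell of each group these ratios were 1.42 and 0.48. The summed list had a per-cell median of 1323 CPM in the Procr-leaning cells and 1155 CPM in the Cd48-leaning cells, with highest cells of 11611 and 2639 CPM. The HPC1 split had a median of 1.24, with 12 of the 19 genes at least 2-fold higher on the Procr side.

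Immediate early genes, switched on quickly by stimuli and also by cell handling, had a median of 0.76, with 5 of 14 at least 2-fold higher in the Procr-leaning cells and 0 in the Cd48-leaning cells. Junb had 310.1 against 78.2 CPM (1.86) and Klf6 144 against 35.4 CPM (1.76), while Fos was at 0.88 and Jun at -0.22. Btg2, at 1.53, was at -0.03 without the highest cell of each group.

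Genes that hold or drive the cell cycle outside S phase and mitosis were mixed. Of 16 inhibitors and quiescence genes, 6 were at least 2-fold higher in the Procr-leaning cells, among them Cdkn1c (the inhibitor p57; 26.0 against 0.920 CPM, from 4 and 2 cells) and Ndn, necdin, which restrains stem-cell division (95.3 against 18.4 CPM). The 2 higher in the Cd48-leaning cells were Foxo3 (-1.71, or 0.23 by detection) and Cdkn1b, the inhibitor p27 (-1.13). The list median of 0.54 was 0.03 without the highest cell of each group for each gene. Among 10 genes of G1 and growth, Myc (89.7 against 370.1 CPM) and Cdk4 (285 against 703 CPM), both of which push cells toward division, were higher in the Cd48-leaning cells, with ratios of -1.93 and -1.28 that were -0.92 and -0.24 by detection. Mycn, a paralogue of Myc, was higher in the Procr-leaning cells with 314 against 81.8 CPM (1.82), and its ratio was 0.64 by detection and 0.03 in HPC1.

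Of 17 ribosome biogenesis genes, 10 were at least 2-fold higher in the Cd48-leaning cells and 0 in the Procr-leaning cells, with a median of -1.10. Nop56, a core protein of the particles that modify ribosomal RNA, had 172 against 384 CPM and was counted in 19 and 25 cells. Of 30 transcription factors of blood cells, 6 were at least 2-fold higher in the Procr-leaning cells and 5 in the Cd48-leaning cells, with a median of 0.11. Besides Mecom, Hlf, Fli1 and Mycn, the first set held Lmo2 (660 against 317 CPM), a bridging protein of stem-cell factor complexes, and Hhex (329 against 148 CPM), a homeobox factor. Besides Gata1, Klf1 and Myc, the second set held Gfi1b (56.3 against 159 CPM), a repressor of the red-cell and platelet lines, and Sox4 (17.95 against 105 CPM), whose ratio of -2.04 turned to 0.32 by detection. Spi1, the myeloid factor PU.1, had 193 against 151 CPM, and Runx1, needed for blood formation, 129 against 101 CPM.

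Respiratory chain and proteasome genes had medians of -0.46 and -0.30, glycolysis genes of -0.01, imprinted genes of 0.19, cytokine receptors of 0.25, and MHC class I and II genes of 0.11 and 0.46.

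The S phase and G2/M genes are read in cycling cells through promoter elements. E2F factors bind elements such as TTCCCGC at genes of S phase, and the CHR element TTTGAA serves genes of G2/M. The letters TTCCCGC or their reverse complement GCGGGAA occurred in the 250 bases upstream of the start in 7 of 24 matched S phase promoters (29.2%), 0 of 20 G2/M promoters and 0 of 29 HSC promoters. They occurred in 3.82% of all 32851 mouse promoters of RefSeq (GRCm38.p6). TTTGAA or TTCAAA occurred in 8 of 20 G2/M promoters (40.0%), 2 of 24 S phase promoters (8.33%) and 3 of 29 HSC promoters (10.3%), against 16.0% of all promoters. A match describes these letters and is no evidence of binding, and some genes have more than 1 promoter.

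The promoters of Hells and Cdc6, the licensing factor of replication origins, are shown for the E2F letters, and those of Top2a and Ccnb2, the mitotic cyclin B2, for the CHR letters, as genes of the 2 cell-cycle phases that differed between the groups. Each is printed 5′ to 3′ on the gene's strand with the letters in capitals: Hells at chr19:38930740-38930989 (plus), Cdc6 at chr11:98907901-98908150 (plus), Top2a at chr11:99024190-99024439 (minus) and Ccnb2 at chr9:70421555-70421804 (minus).
Hells: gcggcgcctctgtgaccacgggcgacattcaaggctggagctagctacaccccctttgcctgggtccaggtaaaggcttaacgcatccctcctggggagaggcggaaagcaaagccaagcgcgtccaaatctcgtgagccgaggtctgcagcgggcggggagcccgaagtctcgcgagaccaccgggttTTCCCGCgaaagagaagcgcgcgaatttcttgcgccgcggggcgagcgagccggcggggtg
Cdc6: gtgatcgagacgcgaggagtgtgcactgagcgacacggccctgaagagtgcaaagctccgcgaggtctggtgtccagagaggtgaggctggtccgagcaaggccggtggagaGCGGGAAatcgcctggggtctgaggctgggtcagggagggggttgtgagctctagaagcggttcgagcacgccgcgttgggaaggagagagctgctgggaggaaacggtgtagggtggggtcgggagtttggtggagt
Top2a: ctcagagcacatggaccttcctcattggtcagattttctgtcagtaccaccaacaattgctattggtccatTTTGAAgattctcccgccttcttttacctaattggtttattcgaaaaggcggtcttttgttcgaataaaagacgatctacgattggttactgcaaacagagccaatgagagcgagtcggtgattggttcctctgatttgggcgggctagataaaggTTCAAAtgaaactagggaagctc
Ccnb2: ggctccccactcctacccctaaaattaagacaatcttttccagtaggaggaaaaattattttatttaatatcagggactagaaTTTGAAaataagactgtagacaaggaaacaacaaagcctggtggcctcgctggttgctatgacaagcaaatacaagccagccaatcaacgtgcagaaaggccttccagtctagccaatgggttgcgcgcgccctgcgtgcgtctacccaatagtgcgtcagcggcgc

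In the HSC1 cells, Cdc6 had 16.1 CPM (10.5 to 23.6) in the Procr-leaning and 49.7 CPM (40.7 to 59.95) in the Cd48-leaning group, from 2 and 18 cells. Ccnb2 had 9.28 CPM (5.20 to 15.3) and 120.0 CPM (106 to 135), from 11 and 18 cells, and the middle group had 175 CPM. Mcm5, a subunit of the replicative helicase, had 16.7 against 208 CPM, Pcna, the replication clamp, 52.0 against 293 CPM, and Mki67, the proliferation marker Ki-67, 4.33 against 123 CPM. The Mki67 ratio of -3.22 turned to 1.12 by detection and was -0.23 with 35 cells a side, and the Ccnb2 ratio of -2.75 turned to 1.56 and 0.45. Mcm5, Pcna and Cdc6 kept their direction under both settings. Of the 24 S phase genes, only Rrm1 (-0.56) and Fen1 (-0.10) were within 2-fold, and of the 23 G2/M genes only Kif11 (-0.61), Cenpf (0.03) and Kif23 (0.38). In the HPC1 split the S phase median was -0.82, with 10 of 24 genes at least 2-fold higher on the Cd48 side, and the G2/M median was -1.38, with 17 of 23. The cell-cycle level did not follow the ranking throughout HPC1. Summed per cell over the S and G2/M genes, it was highest in the HPC1 middle cells, with a median of 6523 CPM. The HPC1 Cd48-leaning cells had 4174 CPM and the HPC1 Procr-leaning cells 1473 CPM. These HPC1 groups also differed in depth, with median totals of 131468 counts in the middle and 67327 in the Cd48-leaning cells. The part of depth in these values was not tested. In the HSC2 libraries the medians were -0.93 and -0.68.

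Summed over the 47 S and G2/M genes, the per-cell level had a median of 1260 CPM (445 to 3726) in the Procr-leaning cells, 1624 CPM (619 to 14973) in the middle cells and 5167 CPM (959 to 13664) in the Cd48-leaning cells. The 3726 CPM came from the shallowest Procr-leaning cell, with 1342 counts in all. A level over 4000 CPM was reached by 0 Procr-leaning, 4 middle and 16 Cd48-leaning cells, and 20, 26 and 6 cells were under 2000 CPM. The Cd48-leaning group held cells at both ends of this range. Summed over the 28 HSC genes, the median was 5871 CPM (1390 to 10166) in the Procr-leaning, 3959 CPM in the middle and 1689 CPM (972 to 4135) in the Cd48-leaning cells, and 20 of the 25 Procr-leaning cells lay above every Cd48-leaning cell.

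Across the 84 cells the 2 sums had a Spearman correlation of -0.66, and within the Procr-leaning, middle and Cd48-leaning groups it was -0.53, -0.45 and -0.62. This is a description over cells of 1 library, and the sums share each cell's total as their denominator. Against the total count the HSC sum had a correlation of -0.13 and the cell-cycle sum of 0.03.

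**Figure D5:**
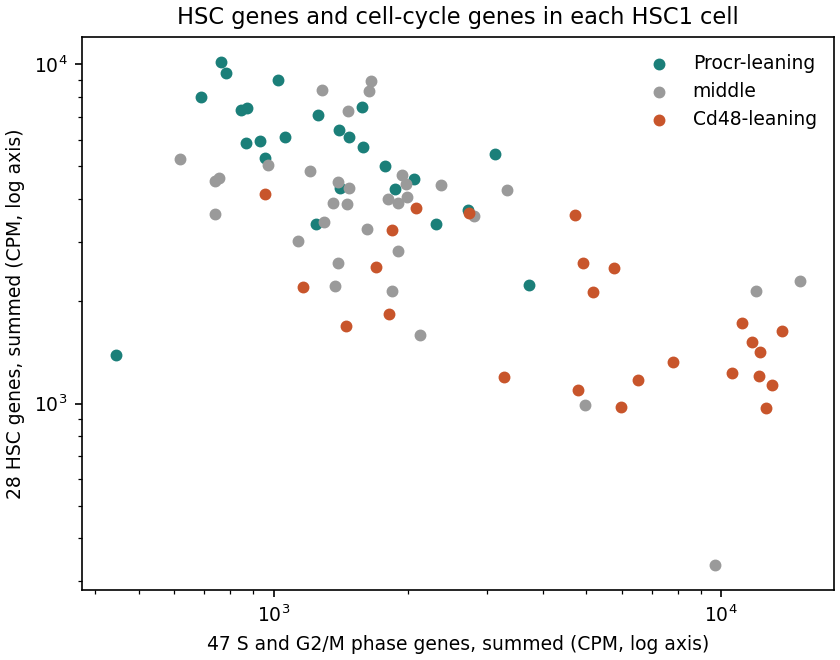
Summed CPM of 28 HSC genes (vertical, log axis) against summed CPM of 47 S and G2/M genes (horizontal, log axis) in each of the 84 HSC1 cells. The 16 Cd48-leaning and 4 middle cells over 4000 CPM of cell-cycle genes lie below the Procr-leaning median of 5871 CPM on the HSC axis, and the Spearman correlation over all cells is -0.66.

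Among only the cells under 2000 CPM of cell-cycle genes (20 Procr-leaning, 6 Cd48-leaning), the S phase and G2/M medians were -0.07 and -0.08 by construction, while the HSC median was 1.21. There Mllt3 was at 2.90, Sult1a1 at 4.77, Mecom at 2.15, Cdk6 at -4.02, Nkg7 at -2.61 and Klf1 at -4.26. Pclaf, at -0.06, belongs to the S phase list that set the limit. Hells was at -0.74 and Cenph at 0.00 to 2 decimals. Both also act on replicating or dividing chromosomes, so these small ratios are no separate finding. The deepest of the 6 Cd48-leaning cells had 161780 and 159401 counts, and the next had 72745. Without the 2 Procr-leaning cells numbered over 48, the HSC, S phase and G2/M medians were 1.39, -2.16 and -2.18.

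Of 11 mature neutrophil genes, 3 were at least 2-fold higher in the Procr-leaning cells, with sums of 532 and 143 CPM, and 1 cell held 61.2% of the Procr-leaning neutrophil counts. In the HPC1 split 1 Procr-leaning cell held 90.2% of such counts and another held 88.2% of the globin counts, which move with the HPC1 values of granulocyte and red-cell genes; their part in those values was not tested. The summed macrophage, mature B cell, and T and NK cell lists were at 83.6, 50.1 and 29.1 CPM in the Procr-leaning and 63.0, 61.2 and 38.2 CPM in the Cd48-leaning cells. Adgre1, the macrophage gene of F4/80, Cd3d and Cd4 of T cells, and the stromal genes Cxcl12 and Col1a1 had no count in either group. Cpa3, a mast cell protease, had 1.86 against 61.6 CPM (-2.59, or -0.79 by detection), while Mcpt8, a basophil protease, had no count in either group.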

How the data were processed

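The authors deposited a score for each gene and cell, scaled to mean 0 and SD 1 over all 497 cells and capped at 10, per the values themselves. The submitters' processing notes name TopHat, HTSeq and mm10. Versions, filtering of cells and removal of doublets were not given in the sources used here. Per the labels, extraction comprised single-cell lysis, a modified Smart-seq2 reaction and enrichment of 3' ends from polyA RNA.

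Counts were recovered from the scores by undoing the scaling and the regression on 2 cell covariates. Of 13278 genes 11989 were recovered, and 100.0000% of 1992335 values up to 50 were whole within 0.01. The recovered genes held a median of 60.2% of an HSC1 cell's total count, since many abundant genes were not recovered, and CPM use the whole total. A capped score (0.0762% of values) gives a lower bound. On simulated counts for this comparison, 11974 of 11989 genes were recovered, and genes drawn 4-fold apart had a median log2 ratio of 1.840 both drawn and recovered. The simulated scores were made by the same scaling that the recovery undoes. They therefore check the procedure only, and not whether the deposited scores follow that scaling. The 2 tables of the HSC2 libraries carry no gene names and were matched line by line to the named table, which was checked by the joint mean and SD of 9901 uncapped genes.

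Named genes are the 12 highest and 12 lowest log2 ratios (10 CPM added) among genes counted in 25% of cells of 1 group, with the share of cells after thinning to 10000 counts and the mean score differing the same way and at least 2-fold left without the highest cell of each group. Procr, Cd48, predicted, mitochondrial and ribosomal protein genes were left out. Members of the 29 gene lists may also be named. A few genes counted in the totals are not reported here. The members, the split and the lists were chosen with earlier results of these data known. Gene positions are from GENCODE M21. Python 3.11.15 with numpy 2.4.6, scipy 1.17.1 and pandas 2.3.3 was used. Doublets were not called.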

Additional observations from a re-analysis of the deposited data

Results flagged for a closer look

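The 6 genes described here lay on opposite sides of 0 in the HSC1 and HPC1 splits; the differences between the 2 libraries were not tested. Morn2 was at 3.31 in HSC1 and -0.61 in HPC1. Sox4, a transcription factor of early lymphoid cells, was at -2.04 in HSC1 and 1.51 in HPC1, where it was 1.28 without the highest cells.

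The remaining 4 turned on the highest HPC1 cell. Klf1 was at -3.51 in HSC1 and 0.65 in HPC1, and -1.53 in HPC1 without the highest cell of each group. Cd52 was at -2.68 and 3.19 (-0.21 without them), Hemgn, a nuclear protein of blood progenitors, at -2.73 and 1.64 (-1.15), and Clec12a, a myeloid lectin receptor, at -1.96 and 2.12 (-0.07). In HSC1 itself Clec12a was at -0.17 without the highest cell of each group.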

How the results depend on the processing

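All values are medians of log2 ratios or numbers of genes at least 2-fold apart, and the cause of each shift was not tested unless the setting's construction gives it. With 35 cells a side the S phase and G2/M medians were -1.66 and -0.28, with 600 genes higher in the Cd48-leaning cells. Averaging log2(CPM + 10) over cells gave an HSC median of 0.60, a G2/M median of -1.08 and 174 genes higher in the Procr-leaning cells. Adding 1 CPM moved the G2/M median to -3.48. Adding 50 CPM shrinks ratios by construction, to 0.69 (HSC), -1.34 (S phase) and -0.92 (G2/M), with 217 and 271 genes on the Procr and Cd48 side. Thinning to 10000 counts gave 555 and 685 genes. Grouping by detection gave -0.87 for S phase, 0.85 for G2/M, 0.20 for effector and SLAM genes, 1.34 for Hist1h2ak, 0.25 for Top2a and 672 genes on the Cd48 side. Without the detection filter 1411 genes were higher on the Procr side. Among cells of under 2000 CPM of cell-cycle genes, a setting chosen after seeing the data, S phase was at -0.07, G2/M at -0.08 and 1601 genes were higher on the Procr side. A further 2 settings were also added after seeing the data, leaving out cells of under 10000 counts and leaving out the Procr-leaning cells numbered over 48.

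Of 336 named-gene values over these settings, 333 kept their sign, but 158 lay outside the limits set by opposite ends of the 2 groups' counting intervals and 2 reversed. Many of these signs were fixed in advance. The naming rule itself required the sign of the score difference and of the ratio without the highest cell. Adding 1 or 50 CPM cannot change a sign. The 333 is therefore no measure of stability. Leaving out cells without a count of the ranking gene removed no cell, and the score setting gives no number of 2-fold genes. No paired analysis was possible because both groups come from 1 library and the labels give no replicate numbers. Depth limits single-cell values: 3 counts over a group are 1.86 CPM in the Procr-leaning and 1.38 CPM in the Cd48-leaning cells.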
